A study of Mus musculus with 4 samples.

Results

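The receptors described here are those through which T cells sense IL-33, IL-18, IL-25, IL-1, IL-6 and IL-27, and their chains are encoded by 10 of the 24418 genes listed for the Treg cells of this study. The 10 genes were chosen by name, namely Il1rl1, Il1rap, Il18r1, Il18rap, Il1r1, Il1r2, Il17rb, Il6ra, Il6st and Il27ra, a set proposed with earlier results of these data known. Treg cells were sorted as CD4+ YFP+ cells from spleens and lymph nodes of Foxp3YFP-Cre mice, in which the Foxp3 locus also codes for a fusion of YFP and Cre recombinase, and which were 8 to 12 weeks old. The cells of both groups were held in culture for 3 h, 1 group with TSLP at 100 ng/mL and the other with PBS, and RNA was sequenced from 2 samples of each group (PBS 1, PBS 2, TSLP 1 and TSLP 2). Reads on genes came to 11328132, 10724392, 11761234 and 10271571 in these libraries. The sources do not say whether samples of a group came from separate mice or cultures, so the p-values measure only the spread between these samples, which may be technical. In cells sequenced in bulk, fewer cells that express a gene and less of its RNA per cell cannot be told apart.

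IL-33, IL-25 and TSLP are alarmins, cytokines that epithelial cells release on damage. IL-33, IL-18 and IL-1 bind receptors of the IL-1 family, in which a ligand-binding chain pairs with an accessory chain and both carry a TIR domain that recruits MyD88. IL-6 and IL-27 bind receptors that share gp130, a chain that activates JAK kinases and the factor STAT3. ST2, the IL-33 receptor encoded by Il1rl1, is known from Treg cells of the gut, skin and adipose tissue.

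The 4 libraries differed from one another before any treatment effect is considered. Foxp3, the lineage factor of Treg cells, had 2514 reads (PBS 1), 5065 (PBS 2), 4784 (TSLP 1) and 4824 (TSLP 2). Of the other 6 Treg cell markers read, Ikzf2 was also low in PBS 1, with 6432 reads against 9786 to 11715 in the other libraries, and so was Il2ra, with 3872 against 4782 to 5113. Tnfrsf18 was highest in PBS 1, with 6025 against 3736 to 4383, as was Ctla4, with 14544 against 12245 to 14091. Cd4 had 5804 to 6291 reads and Cd3e 2629 to 2812. All 7 markers were thus read in every library, at levels that set PBS 1 apart in both directions. Among 2679 well-read genes (mean of 1000 reads or more), longer exons went with lower values in PBS 1 relative to the other libraries, with a Spearman rho of −0.66. Genes are not independent replicates, so this rho is a description. The receptor genes had a median exon length of 6557.5 bases against 4466 bases over the genes tested. PBS 1 was the lowest of the 4 libraries in 6 of the 10 receptor genes, against 34% of all genes tested, and it was the highest in 0, against 32.4% of all genes tested. Values without PBS 1 and without PBS 2 are therefore given beside the results of the receptor genes.

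In Treg cells held with PBS or with TSLP, Il1rl1 of the IL-33 receptor and Il6st, the gene of gp130, were the most abundant of the 10 per length, and Il17rb of the IL-25 receptor and Il1r1 of the IL-1 receptor were close to the limit of detection. None of the 10 genes differed between TSLP and PBS beyond the spread between replicates. By limma on log2(normalised count + 1) with Benjamini-Hochberg adjustment over 11392 genes, 0 of the 10 had an adjusted p under 0.05, and the smallest adjusted p was 0.9999. At an unadjusted p under 0.05 the count was again 0 of 10 by limma, edgeR and DESeq2, against 1.69% of all genes tested by limma and 2.05% by each of the others. Over all genes, limma, edgeR and DESeq2 each called 0 at an adjusted p under 0.05 (0%), and 192, 234 and 286 at an unadjusted p under 0.05. A normalised count is a read count divided by the size factor of its library, and genes entered the test with at least 10 in at least 2 libraries, which all 10 did. Fold changes are log2 of TSLP against PBS on this scale and understate the change of genes with few reads.

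**Figure D1:**
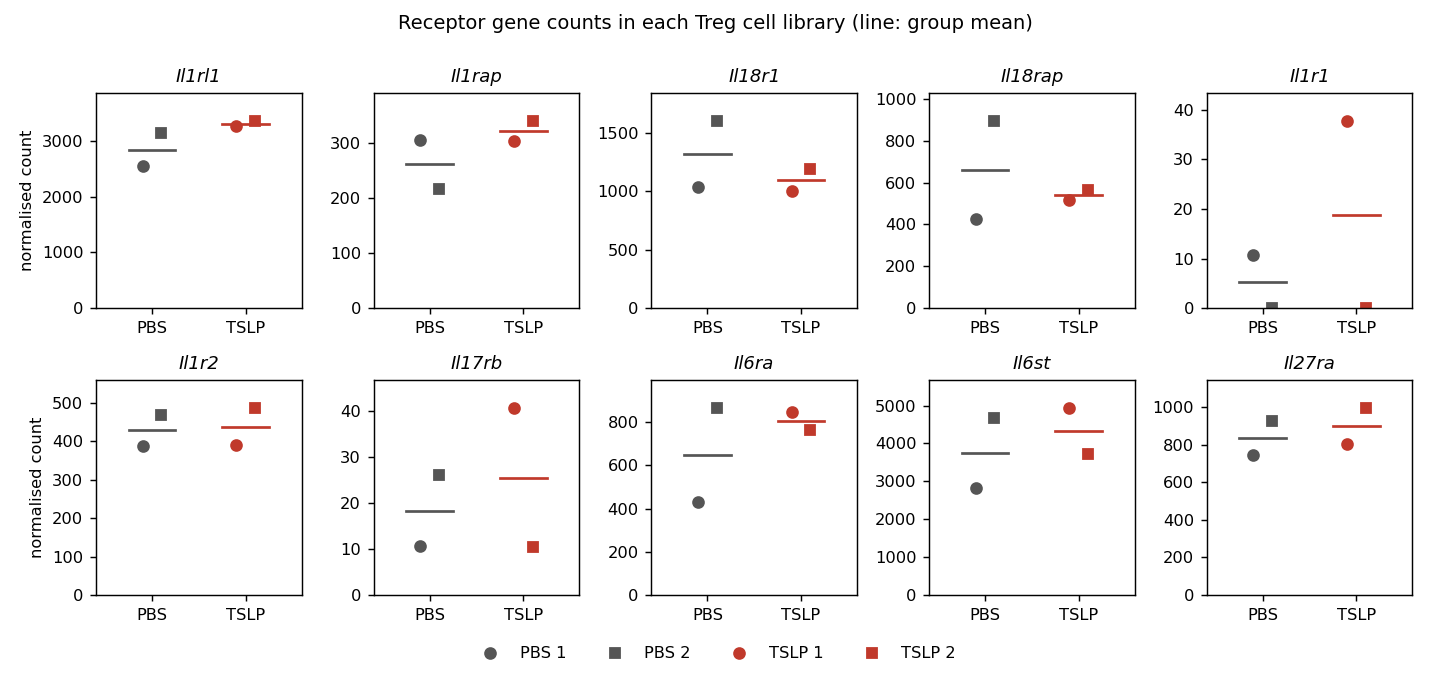
Normalised counts (y axis, from 0) of each receptor gene in the 2 PBS and 2 TSLP libraries, with a line at each group mean. In Il1rl1 both TSLP libraries lie above both PBS libraries, by a small step, and in the other 9 genes the groups overlap.

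In 5 of the 10 genes the position in the genome is part of the picture. On chromosome 1 of mm10 (GRCm38), Il1r2, Il1r1, Il1rl2, Il1rl1, Il18r1 and Il18rap lie in this order on the forward strand within 477.6 kb, as annotated in GENCODE M21. Il1rl1 runs from 40429570 to 40465415 and Il18r1 from 40465552 to 40500854, so that 136 bases separate them, and Il18rap follows from 40515362 to 40551705. Il1r2 runs from 40074079 to 40125231 and Il1r1 from 40225080 to 40317257. The levels along this stretch were uneven. The mean normalised count per kb of exon was 227 ± 26.7 for Il1r2 (SD over 4 libraries), 1.90 ± 2.80 for Il1r1, 446 ± 52.4 for Il1rl1, 251 ± 56.4 for Il18r1 and 88.7 ± 30.3 for Il18rap. Il1rl2, which encodes the IL-36 receptor and is not among the 10 genes, had 0.774 ± 1.35, with 19 reads in PBS 2, 2 in TSLP 2 and none in the other libraries. Thus the pair with the lowest levels, Il1r1 and Il1rl2, lies between well-read genes.

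**Figure D2:**
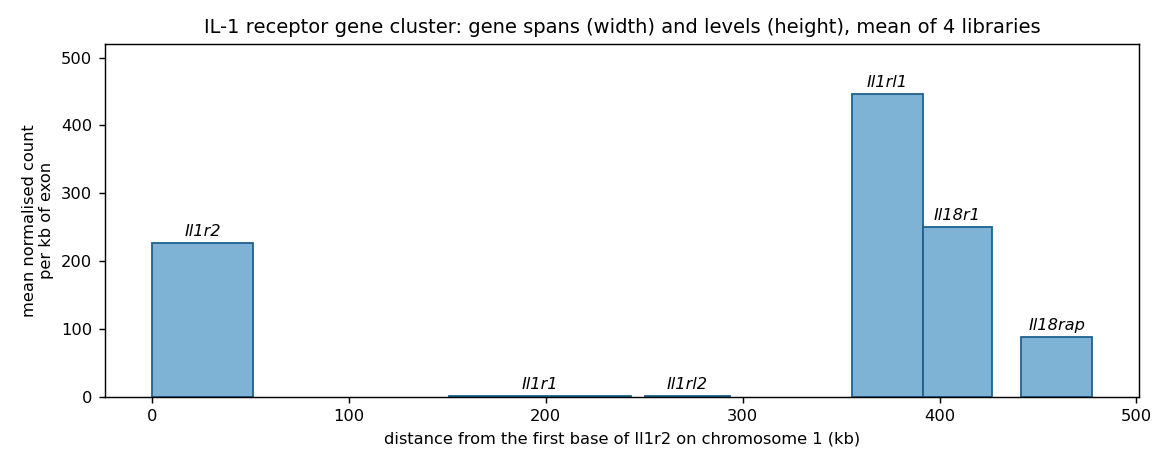
Spans of the 6 genes of the IL-1 receptor cluster on chromosome 1 (x axis, kb from the first base of Il1r2) with the mean normalised count per kb of exon over 4 libraries as bar height (y axis). Il1rl1 is the tallest at 446, and Il1r1 and Il1rl2 are barely above 0 between Il1r2 and Il1rl1.

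The sequences just before 3 of the transcription starts are shown, 1 each for a chain of the IL-33 receptor (Il1rl1), a chain of the IL-18 receptor (Il18rap) and gp130 (Il6st). The windows shown hold no annotated exon, which was also so for those of Il1r1. Each is the 250 bases before a RefSeq start (GRCm38.p6), 5′ to 3′ on the forward strand, at chr1:40429320-40429569, chr1:40515112-40515361 and chr13:112463820-112464069. Capitals mark AGATAA or its reverse complement, the letters of a GATA motif, which is the one match to 3 searched motifs in these windows.
Il1rl1: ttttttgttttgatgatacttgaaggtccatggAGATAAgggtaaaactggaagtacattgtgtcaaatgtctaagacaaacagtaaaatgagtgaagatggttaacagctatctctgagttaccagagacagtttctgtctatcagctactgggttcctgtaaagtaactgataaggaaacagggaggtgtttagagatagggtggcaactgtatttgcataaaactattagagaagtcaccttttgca
Il18rap: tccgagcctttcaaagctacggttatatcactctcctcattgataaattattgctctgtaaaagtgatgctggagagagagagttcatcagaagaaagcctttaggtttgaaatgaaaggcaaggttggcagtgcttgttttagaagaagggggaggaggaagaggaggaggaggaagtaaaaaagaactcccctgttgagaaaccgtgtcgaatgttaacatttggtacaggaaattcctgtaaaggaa
Il6st: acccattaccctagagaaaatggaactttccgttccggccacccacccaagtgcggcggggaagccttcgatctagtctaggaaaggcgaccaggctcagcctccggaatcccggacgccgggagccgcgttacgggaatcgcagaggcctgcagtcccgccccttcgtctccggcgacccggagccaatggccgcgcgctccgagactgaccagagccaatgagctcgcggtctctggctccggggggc
The searched motifs were TTCNNNGAA, the letters of a motif of STAT5, a factor activated by TSLP, TGANTCA for AP-1 and AGATAA for GATA factors, on both strands, and no matches in the receptor windows overlapped. They were found in 7.01%, 6.75% and 9.99% of 32817 such windows of all genes. Of the 13 windows of 9 receptor genes with an entry (Il27ra had none), 2 held TTCNNNGAA, 1 held TGANTCA and 3 held AGATAA. The TTCNNNGAA matches lay 219 and 152 bases before the last of 3 Il18r1 starts, as TTCTGGGAA and TTCCCAGAA, and 111 bases before the Il1r2 start, as TTCAAGGAA. The AGATAA matches lay 217 bases before the Il1rl1 start shown, 103 bases before a further Il1rl1 start (window chr1:40439379-40439628) and 245 bases before the Il6ra start. A match of letters is a description and not a site of binding.

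The IL-33 receptor consists of ST2 (Il1rl1), which binds the cytokine, and the accessory chain IL-1RAcP (Il1rap), which is shared with the receptors for IL-1 and IL-36. Il1rl1 had a normalised count of 2550.1 (PBS 1), 3134 (PBS 2), 3265 (TSLP 1) and 3352 (TSLP 2). The lower TSLP library exceeded the higher PBS library, which was found in 1 of the 10 receptor genes and in 14.5% of all genes tested. Groups without overlap in either direction were found in 28.9% of all genes tested. The PBS mean was 2842 ± 413 and the TSLP mean 3308 ± 61.0 (SD, n = 2 each). On the log2 scale the difference was 0.23 ± 0.22 (standard error), and its 95% interval ran from −0.27 to 0.72 (adjusted p = 0.9999 by limma after the Benjamini-Hochberg procedure). Without PBS 1 it was 0.08, and without PBS 2 it was 0.38. Such a fit assumes that the lone PBS library varies like the others. PBS 2 lay close to the TSLP libraries and PBS 1 below them. Il1rl1 codes for membrane and soluble forms of ST2, which counts per gene do not tell apart.

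Il1rap, on chromosome 16 from 26581704 to 26730117, was read at a much lower level. Its normalised count was 306 (PBS 1), 216 (PBS 2), 304 (TSLP 1) and 339.6 (TSLP 2), so that PBS 2 was the low library and the groups overlapped. The log2 fold change was 0.32 (standard error 0.34, 95% interval from −0.45 to 1.09, adjusted p = 0.9999 by limma). It was 0.57 without PBS 1 and 0.07 without PBS 2, opposite in order to Il1rl1. Per kb of exon, Il1rl1 was 13.7 times as abundant as Il1rap in PBS 1, 23.9 times in PBS 2, 17.7 times in TSLP 1 and 16.3 times in TSLP 2. By the longest transcript these ratios ran from 7.10 to 12.4, and by coding length from 11.8 to 20.6. RNA of the chain that binds IL-33 was thus well above that of the accessory chain in every library, with no separation of the groups. Exons of Il1rap share 552 bases with the antisense gene Gm20319, and the strand setting of the counting is not given in the sources used here, so reads there cannot be assigned.

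The IL-18 receptor has a similar plan, with IL-18Rα (Il18r1) binding the cytokine and IL-18Rβ (Il18rap) needed for signalling. Il18r1 had a normalised count of 1039 (PBS 1), 1597 (PBS 2), 1004 (TSLP 1) and 1188 (TSLP 2). Il18rap had 425 (PBS 1), 893 (PBS 2), 515 (TSLP 1) and 563 (TSLP 2). In both genes PBS 2 was the highest library, which held for 3 of the 10 receptor genes and for 23.3% of all genes tested, and PBS 1 was 1 of the 2 lowest. These were also the 2 receptor genes with a negative fold change. The log2 fold change was −0.24 for Il18r1 (standard error 0.27, 95% interval from −0.84 to 0.37) and −0.19 for Il18rap (standard error 0.36, 95% interval from −1.001 to 0.62), each at an adjusted p of 0.9999 by limma. Without PBS 1 the values were −0.55 and −0.73. Without PBS 2 they were 0.072 and 0.34, so the direction depended on which PBS library was kept. The ratio of Il18r1 to Il18rap per kb of exon ranged from 2.51 to 3.43, at 2.97 ± 0.654 in the PBS libraries and 2.84 ± 0.159 in the TSLP libraries (SD, n = 2 each).

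IL-1 has a signalling receptor (Il1r1) and a decoy (Il1r2), which binds IL-1 but lacks the TIR domain and is known from activated Treg cells. At the level of RNA, the decoy was the prevailing form in these cells. Il1r2 had a normalised count of 389 (PBS 1), 468 (PBS 2), 391 (TSLP 1) and 486 (TSLP 2), with the groups overlapping almost completely. Its log2 fold change was 0.03 (standard error 0.29, 95% interval from −0.63 to 0.69, adjusted p = 0.9999 by limma), −0.10 without PBS 1 and 0.17 without PBS 2. Il1r1 had 11 reads (PBS 1), none (PBS 2), 40 (TSLP 1) and none (TSLP 2). A library without reads for a gene is taken here as up to 3 reads, a limit that covers counting error only, since PCR copies were counted as reads. Il1r1 thus passed the filter on low counts through the libraries numbered 1 of both groups, and its log2 fold change of 0.86 had a 95% interval from −5.14 to 6.87. It was 2.64 without PBS 1 and −0.91 without PBS 2. Per kb of exon, Il1r2 was 122 times as abundant as Il1r1 in PBS 1 and 34.6 times in TSLP 1. By coding length these ratios were 51.2 and 14.6. Against the limit of 3 reads in a library, Il1r2 was at least 219-fold higher in PBS 2 and at least 218-fold higher in TSLP 2 by coding length, which gave the lowest bounds of the 3 lengths tried, and at least 520.2-fold and 517-fold higher per kb of exon.

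For IL-25, Il17rb encodes the chain that binds the cytokine and Il17ra the chain shared within the IL-17 receptor family. Il17rb (chromosome 14, 29996135 to 30008896, reverse strand) had 11 reads (PBS 1), 26 (PBS 2), 43 (TSLP 1) and 10 (TSLP 2). The lowest and the highest of these values both came from TSLP libraries. The log2 fold change was 0.30 (standard error 1.19, 95% interval from −2.40 to 3.00), so a several-fold change either way was not detectable. It was −0.31 without PBS 1, 0.90 without PBS 2, −0.63 without TSLP 1 and 1.23 without TSLP 2. Its exons share 141 bases with Actr8 on the opposite strand. Il17ra, in contrast, had 2956 to 3449 reads and a log2 fold change of −0.06 (−0.18 without PBS 1 and 0.061 without PBS 2), and per kb of exon it was 31.8 to 127 times as abundant as Il17rb (24.7 to 98.2 times by the longest transcript and 47.6 to 189 times by coding length).

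The IL-6 receptor joins IL-6Rα (Il6ra), which binds the cytokine, to gp130 (Il6st), which transmits the signal. Il6ra (chromosome 3, 89864059 to 89913196, reverse strand) had a normalised count of 430.3 (PBS 1), 863 (PBS 2), 848 (TSLP 1) and 765 (TSLP 2). PBS 1 was low and the other 3 libraries lay close together, with PBS 2 above both TSLP libraries. The log2 fold change of 0.40 was the highest among the 8 genes with over 100 reads in every library, with a standard error of 0.34 and a 95% interval from −0.36 to 1.16 (adjusted p = 0.9999 by limma). It was −0.10 without PBS 1 and 0.90 without PBS 2. Exons of Il6ra share 242 bases with the antisense gene Gm42809, which is not listed under this name in the table. Il6st, on chromosome 13 from 112464070 to 112510086, was also lowest in PBS 1, at a higher level. Its normalised count was 2815 (PBS 1), 4677 (PBS 2), 4928 (TSLP 1) and 3716 (TSLP 2). TSLP against PBS this was 0.24 on the log2 scale (standard error 0.29, 95% interval from −0.41 to 0.89). Without PBS 1 it was −0.13, without PBS 2 it was 0.60, and with the trend of each library over exon length removed it was 0.04. Per kb of exon, Il6st was 4.66 ± 0.619 (SD, n = 2) times as abundant as Il6ra with PBS and 4.15 ± 0.525 times with TSLP. Over the 4 libraries the ratio ran from 3.78 to 5.09 per kb of exon, from 4.84 to 6.51 by the longest transcript and from 2.40 to 3.23 by coding length.

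IL-27 signals through IL-27Rα (Il27ra) together with gp130. Il27ra (chromosome 8, 84030294 to 84042589, reverse strand) had a normalised count of 746 (PBS 1), 925 (PBS 2), 802 (TSLP 1) and 993 (TSLP 2). The PBS mean of 836 ± 127 and the TSLP mean of 897 ± 135 (SD, n = 2 each) differed by less than 1 SD of either group. The log2 fold change was 0.10 (standard error 0.25, 95% interval from −0.47 to 0.67), −0.053 without PBS 1 and 0.26 without PBS 2. Per kb of exon, Il6st was 1.18 to 1.94 times as abundant as Il27ra over the 4 libraries, and by coding length it was 2.50 to 4.11 times. Il27ra shared 2 exon bases with Palm3 on the opposite strand.

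**Figure D3:**
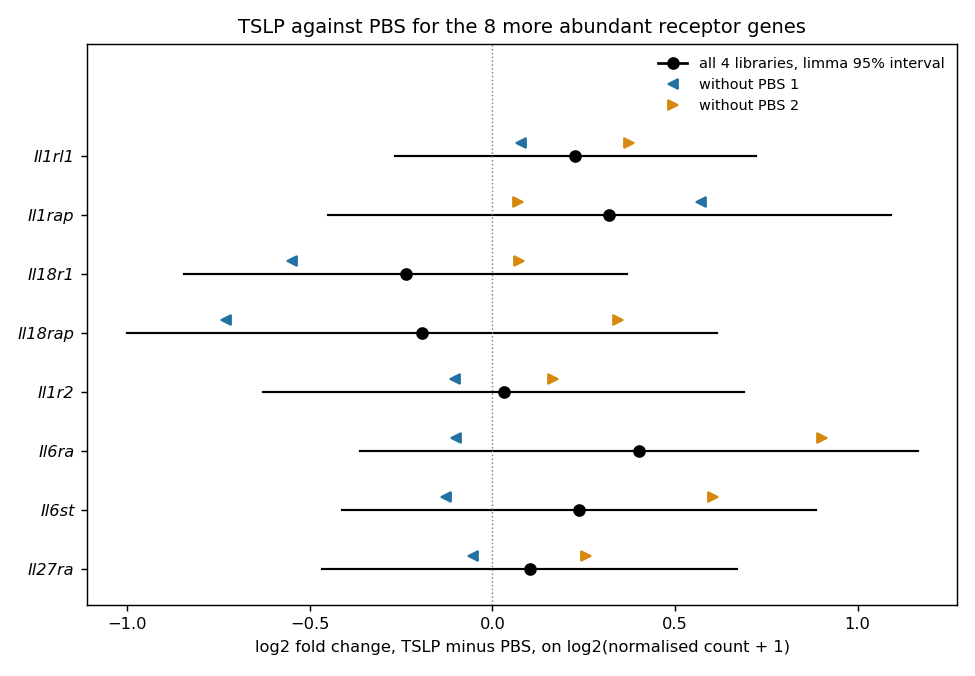
Log2 fold change of TSLP against PBS (x axis) for the 8 receptor genes with over 100 reads in every library, with the 95% interval from limma (line) and the values without PBS 1 and without PBS 2 (triangles). Every interval spans 0, and leaving out PBS 1 or PBS 2 gives opposite signs in 6 of the genes, the exceptions being Il1rl1 and Il1rap.

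Across all 10 genes, 8 had a positive and 2 a negative log2 fold change, and their median was 0.23 against 0.01 over all genes tested. It was 0.16 over the 8 genes with at least 50 in at least 2 libraries, which leaves out Il17rb and Il1r1, both positive. The median of the 10 was −0.10 without PBS 1, 0.30 without PBS 2, 0.11 without TSLP 1 and 0.22 without TSLP 2. With the trend of each library over exon length removed it was 0.12. Removing this trend moved 5 of the 10 genes by over 1.5 times, from 0.23 to 0.15 for Il1rl1, from 0.32 to 0.12 for Il1rap, from 0.03 to 0.10 for Il1r2, from 0.40 to 0.26 for Il6ra and from 0.24 to 0.04 for Il6st. In all 10 genes PBS 1 and PBS 2 differed by more on the log2 scale than the means of the groups did, which was so for 70.1% of the genes tested.

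Ordered by normalised count per kb of exon, the levels ran from Il1rl1 (446 ± 52.4, SD over 4 libraries) over Il6st (363 ± 87.1), Il18r1 (251 ± 56.4), Il27ra (248 ± 32.2), Il1r2 (227 ± 26.7), Il18rap (88.7 ± 30.3), Il6ra (84.1 ± 23.4) and Il1rap (25.7 ± 4.65) to Il17rb (5.91 ± 3.88) and Il1r1 (1.90 ± 2.80). The ranges of neighbours overlapped from Il1rl1 down to Il1r2, between Il18rap and Il6ra, and between Il17rb and Il1r1. They did not overlap between Il1r2 and Il18rap, between Il6ra and Il1rap, or between Il1rap and Il17rb. Of these gaps, the one between Il1rap and Il17rb was found also with the longest transcript or the coding length in place of exon length. By the longest transcript the range of Il6ra (49.8 to 99.9) met that of Il1rap (47.8 to 75.1), and by coding length the range of Il18rap (230.5 to 485) met that of Il1r2 (316 to 395). RNA of each of the ligand-binding chains ST2 and IL-18Rα stood above that of its accessory chain, whereas RNA of IL-6Rα stood below that of gp130. By coding length in place of exon length, 6 of the 10 genes kept their place, and Il6ra moved up past Il27ra, Il1r2 and Il18rap.

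**Figure D4:**
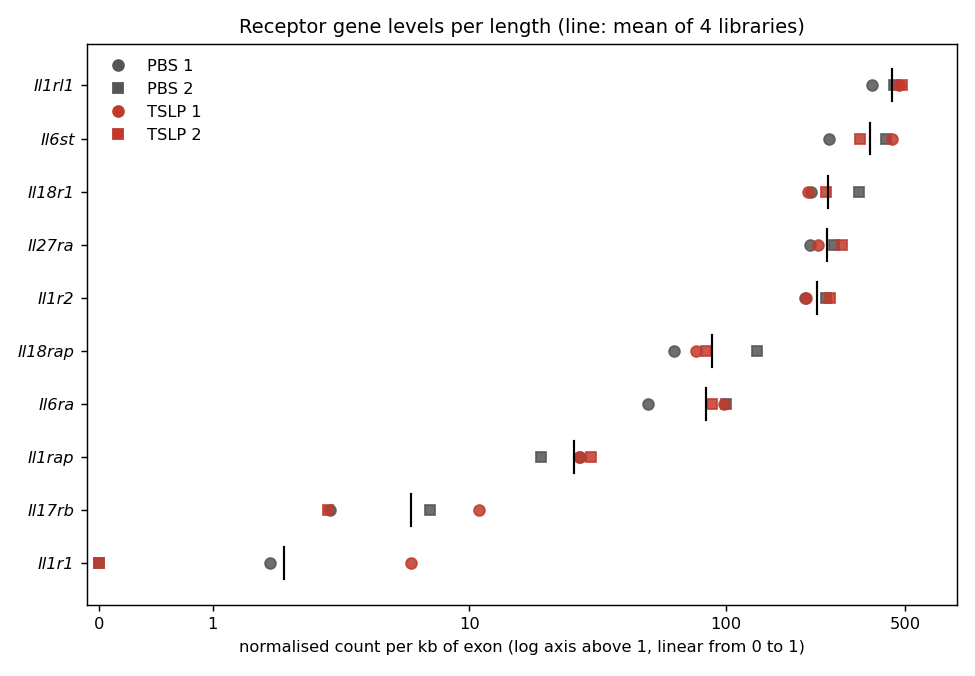
Normalised count per kb of exon (x axis, logarithmic above 1) of each receptor gene in each library, in order of the mean over 4 libraries (line). On this scale gaps separate 5 genes above 200, Il18rap and Il6ra, then Il1rap, then Il17rb and Il1r1, with Il1r1 at 0 in PBS 2 and TSLP 2.

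The other genes of these pathways were read from 5 lists of 75 genes in all. Of these, 49 passed the filter on low counts, 27 with a positive and 22 with a negative fold change, a median of 0.06, and 0 had an unadjusted p under 0.05 by limma in either direction (0.772% of all genes tested were higher and 0.913% lower with TSLP). Groups without overlap were found in 11 of the 49 with TSLP higher and in 5 with TSLP lower, against 14.5% and 14.4% of all genes tested. Among 20 ligands and soluble antagonists, 9 lay at or under 3 reads in every library, among them Il33, Il18, Il25 and Il1b, and 5 were tested. The most abundant were Lif and Clcf1, both ligands of gp130 receptor complexes. Lif had a normalised count of 1338 (PBS 1), 971 (PBS 2), 1171 (TSLP 1) and 802 (TSLP 2), lower in the library numbered 2 of each group. Its log2 fold change was −0.23 (standard error 0.28) and ran from −0.51 to 0.039 on leaving out each library in turn. Clcf1 had 1301, 1118, 1049 and 999 in the same order, with a log2 fold change of −0.24 (standard error 0.23), −0.13 without PBS 1 and −0.35 without PBS 2. Il18bp, a soluble inhibitor of IL-18, and named here after its values were seen, was at −0.999 with a standard error of 0.68, at −0.56 without PBS 1 and at −1.43 without PBS 2. Its reads were 114 (PBS 1), 60 (PBS 2), 35 (TSLP 1) and 47 (TSLP 2).

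Of 16 other receptor chains, 6 were tested and 6 lay at or under 3 reads in every library, including Lifr, Osmr and Cntfr, which join gp130 in receptor complexes. After Il17ra the most abundant was Sigirr, an inhibitory member of the IL-1 receptor family. Its normalised count was 848 (PBS 1), 745 (PBS 2), 488 (TSLP 1) and 648 (TSLP 2), so that both TSLP libraries were the lower ones, with a log2 fold change of −0.50 (standard error 0.26, 95% interval from −1.10 to 0.10), −0.29 without TSLP 1 and −0.70 without TSLP 2. Il12rb2, a chain of the IL-12 receptor, had no reads (PBS 1), 12 (PBS 2), 60 (TSLP 1) and 19 (TSLP 2). It passed the filter only through the libraries in which it was read, and its log2 fold change of 3.26 had a 95% interval from −0.57 to 7.10. It was 1.41 without PBS 1 and 5.11 without PBS 2.

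Downstream of the IL-1 family receptors, all 16 genes of the MyD88 branch were tested. Of these, 12 had a positive and 4 a negative fold change, with a median of 0.13. Without PBS 1, Traf6, Map3k7 and Ube2v1 turned negative and Tollip and Peli1 positive. Without PBS 2, Traf3ip2 and Tab1 turned negative and Irak1 and Irak3 positive. Peli1, an E3 ubiquitin ligase, and Tab2, an adaptor of the kinase TAK1, had the highest counts, and their log2 fold changes were −0.01 and 0.15. Without PBS 1 they were 0.094 and 0.076, and without PBS 2 they were −0.11 and 0.23. Irak2, a kinase of the MyD88 complex named here after its values were seen, had a normalised count of 549.6 (PBS 1), 414 (PBS 2), 693 (TSLP 1) and 669 (TSLP 2). Both TSLP values were the higher, by 0.51 on the log2 scale (standard error 0.27, 95% interval from −0.10 to 1.12, unadjusted p = 0.0904, adjusted p = 0.9999 by limma), 0.72 without PBS 1 (adjusted p = 0.979 by limma) and 0.31 without PBS 2 (adjusted p = 0.505 by limma). Of 13 genes of gp130 signalling and receptor shedding 12 were tested, 7 with a positive and 5 with a negative fold change, with a median of 0.10. Without PBS 1, Tyk2 and Ptpn11 turned negative and Socs1 and Socs3 positive. Without PBS 2 no sign turned, but sizes moved, from 0.40 to 0.85 for Tyk2 and from −0.30 to −0.49 for Grb2. Jak1 and Stat3, the kinase and the factor that follow gp130, were the most abundant, with 11520 to 15287 reads for Jak1 and 10166 to 13146 for Stat3, and their log2 fold changes were 0.21 and 0.14. On leaving out each library in turn, that of Jak1 ran from 0.095 (without PBS 1) to 0.32 (without PBS 2) and that of Stat3 from 0.028 (without TSLP 1) to 0.25 (without TSLP 2). Adam10 and Adam17, proteases that shed IL-6Rα, and also named after their values were seen, had TSLP values above the PBS values without overlap, with log2 fold changes of 0.33 and 0.31 and standard errors of 0.24 and 0.23. For Adam10 this was 0.077 without PBS 1 and 0.58 without PBS 2, and for Adam17 it was 0.22 and 0.41.

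Genes known from ST2+ Treg cells of tissues were read beside Il1rl1. All 10 were tested, 4 with a positive and 6 with a negative fold change, and the median was −0.06. This tally depended on the PBS library kept. Without PBS 1, Gata3, Areg, Klrg1 and Nfil3 turned positive and Tigit negative, and without PBS 2 Ccr8 turned negative. Irf4 and Gata3, both transcription factors of activated Treg cells, were the most abundant. Irf4 had a normalised count of 3935 (PBS 1), 4469 (PBS 2), 4829 (TSLP 1) and 5005 (TSLP 2), with the TSLP libraries above both PBS libraries and a log2 fold change of 0.23 (standard error 0.22), 0.14 without PBS 1 and 0.32 without PBS 2. Gata3 had 3316 (PBS 1), 2063 (PBS 2), 2883 (TSLP 1) and 2055 (TSLP 2), and was high in the libraries numbered 1. The groups differed by −0.10 on the log2 scale (standard error 0.29), by 0.24 without PBS 1 and by −0.45 without PBS 2. The fold changes of this list thus ran in both directions.

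**Figure D5:**
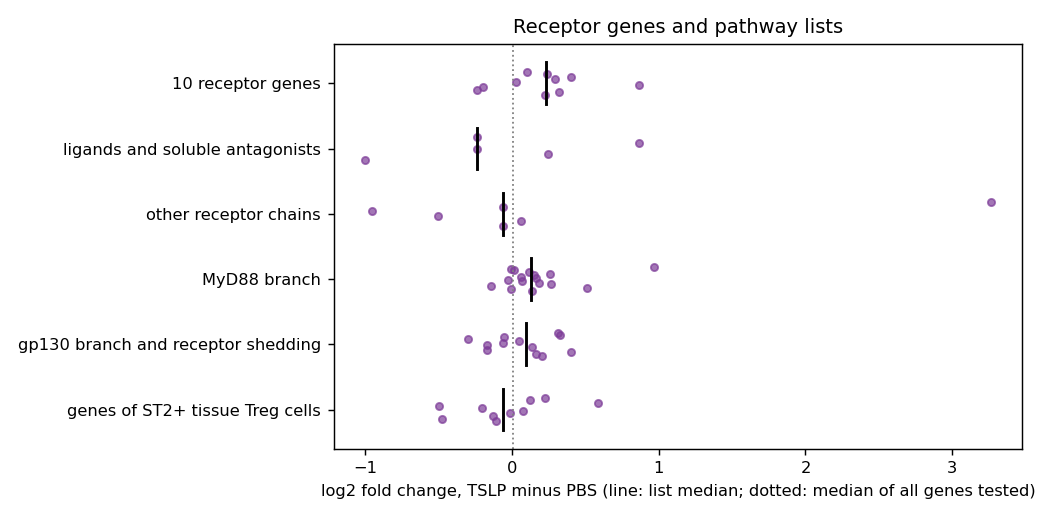
Log2 fold change of TSLP against PBS (x axis) for each tested gene of the 10 receptor genes and of the 5 pathway lists (points), with the median of each list (line) and of all genes tested (dotted line at 0.01). The medians lie between −0.23 and 0.23, and the point at 3.26 is Il12rb2.

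Other cells also express these receptors, so their markers were read in the same libraries. Of 6 genes of mast cells and basophils, which carry ST2, Cpa3, Ms4a2, Fcer1a and Mcpt8 had no reads in any library and Gata2 had 4 reads in TSLP 1 alone. The most abundant was Kit, with 37, 81, 97 and 123 reads in PBS 1, PBS 2, TSLP 1 and TSLP 2, and the summed level of the list was 3.27, 7.55, 8.59 and 11.97 cpm (read counts scaled to the reads on genes of the library) in the same order. Il1rl1 alone was at 232, 292, 295 and 312 cpm. Of 7 genes of NK and CD8 T cells, which carry the IL-18 receptor, Ncr1 and Klrd1 had no reads, Cd8b1 was the most abundant with 76 to 120 reads, and the list summed to 21.5, 13.1, 14.1 and 25.7 cpm, lowest in PBS 2, where Il18r1 and Il18rap were highest. Of 9 genes of myeloid cells and neutrophils, which carry IL-1R2, 8 were found in the table, and Adgre1, S100a9 and Csf3r had no reads. Cd68 was the most abundant, with 174, 66, 59 and 16 reads, and the list summed to 17.6, 11.9, 8.59 and 9.83 cpm. Itgam, with 23, 19, 4 and 7 reads, was also highest in PBS 1. The other genes with reads were not, with 1, 43, 37 and 40 for Lyz2, 1, 0, 1 and 27 for Csf1r and 0, 0, 0 and 11 for S100a8. Of 5 B cell genes, Pax5 had no reads, and the list summed to 0.618, 10.4, 5.02 and 9.35 cpm, led by Cd79b. Of 5 stromal and endothelial genes, Col3a1, Pdgfra and Cdh5 had no reads, and the list summed to 118 to 177 cpm through Pecam1, which T cells also express. The 4 genes of conventional naive T cells summed to 984 to 1112 cpm, led by Satb1 (857 to 969 cpm), which is not restricted to them. Of the others, Cd40lg had 853 (PBS 1), 363 (PBS 2), 1065 (TSLP 1) and 518 (TSLP 2) reads. In the same order Igfbp4 had 889, 613, 578 and 621, and Dapl1 had 30, 23, 39 and 0. The part of such cells in the levels of the receptor genes was not tested.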

How the data were processed

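RNA of sorted Treg cells was sequenced in 2 PBS and 2 TSLP samples. Per the labels and the study's methods, the authors mapped single-end reads of 50 bases to mm10 with HISAT2, counted them per gene with HTSeq and analysed them with DESeq2. The gene annotation and strand setting are not given in the sources used here. The deposited values are a signal, namely read counts divided by 1 size factor per library (0.957 to 1.0615), and multiplying them back gave whole reads for 100% of them within 0.01. In 27 rows the gene name had turned into a date.

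The test on these values was limma 3.58.1 (trend over mean level) in R 4.3.3 on log2(normalised count + 1), over genes with at least 10 in at least 2 libraries. edgeR 4.0.16 with TMM and DESeq2 1.42.0 were run on the recovered reads. Positions and lengths came from GENCODE M21. Data were simulated for this comparison with 200 changed genes. At an adjusted p under 0.05, limma called 23 of them at a log2 change of 1 (10864 genes) and 125 at 2 (10828 genes). It also called 2 and 10 unchanged genes. With edgeR, 1 and 129 of the changed genes were called, and 0 and 11 unchanged ones. Whether these counts hold for the real libraries, in which values of PBS 1 fell with exon length, was not tested. The receptor genes and lists were chosen with earlier results of these data known. Besides the receptor genes, the text names the 2 most abundant genes of each pathway list, list genes with an unadjusted p under 0.05 or with a log2 change of at least 1 and no overlap of the groups, and marker genes that lead a list or are at or under 3 reads. Others are examples chosen after their values were seen. Il36a, Il36b and Il36g were read under older symbols, and 1 neutrophil gene was not analysed here.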

Additional observations from a re-analysis of the deposited data

How the results depend on the processing

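Under every alternative fit that was run, 0 receptor genes and 0 of all genes had an adjusted p under 0.05, by limma, edgeR or DESeq2. At an unadjusted p under 0.05, 192 genes became 427 without limma's trend, 358 without a filter and 291 with the trend over exon length removed together with the replicate block, and 79 to 1858 on leaving out a library, the highest without PBS 2. The receptor genes at that threshold numbered 0 to 3 on leaving out a library, namely Il18r1 and Il18rap without PBS 1 and Il1rl1, Il6ra and Il6st without PBS 2. Genes of the pathway lists numbered 0 to 5, namely Irak2 without PBS 1 and Il12rb2, Batf, Grb2, Adam10 and Tyk2 without PBS 2, and 1 (Osm) without limma's trend. Of the order of levels, 6 of 10 places were kept with coding length and 6 to 10 on leaving out a library. Signs turned only on leaving out a library, with ranges of −0.55 to 0.072 for Il18r1, −0.73 to 0.34 for Il18rap, −1.77 to 3.50 for Il1r1, −0.13 to 0.19 for Il1r2, −0.63 to 1.23 for Il17rb, −0.10 to 0.90 for Il6ra, −0.13 to 0.60 for Il6st and −0.053 to 0.26 for Il27ra. The cause was not tested. Deviations of samples with the same replicate number had a correlation of 0.00072 over genes. With 2 libraries a group, this value cannot decide whether the samples were paired. With the replicate block, limma called 258 and edgeR 215 genes at an unadjusted p under 0.05, and no receptor gene. Il17rb and Il1r1 had few reads and differed widely between libraries of a group, so their fold changes were not resolved.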

Other observations

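Some genes that act downstream of these receptors, chosen after their values were seen, were higher in the library numbered 1 than in that numbered 2 of both groups. Socs3, the feedback inhibitor of gp130, had a normalised count of 2758 (PBS 1), 1827 (PBS 2), 2672 (TSLP 1) and 1734 (TSLP 2). Areg, which encodes amphiregulin, a repair factor of tissue Treg cells, had 569, 372, 535 and 330.2 in the same order. Il1r1 had reads in PBS 1 and TSLP 1 alone. The receptor genes Il1r2, Il27ra, Il1rl1, Il18r1 and Il18rap ran the other way. Il1rap, Il17rb, Il6ra and Il6st ran in opposite ways in the PBS and TSLP groups. The share of all genes with the same direction in both groups was not determined. The ratio of library 2 to library 1 was 1.205 (PBS) and 1.24 (TSLP) for Il1r2, and 1.24 in both groups for Il27ra. In the same order it was 1.23 and 1.03 for Il1rl1, 1.54 and 1.18 for Il18r1, and 2.10 and 1.09 for Il18rap. Over all genes tested, the deviations of libraries with the same number had a correlation of 0.00072.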
